A study of Mus musculus with 4 samples.

Results

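The proteasome subunit genes were followed through the 4 arrays, taking every gene whose single symbol in the probe-to-gene table begins with Psma, Psmb, Psmc, Psmd, Psme, Psmf or Psmg and a digit. The choice used symbols only, and it found 50 of 19938 named genes. Of these, 46 lay at or above a floor of 6.96 (log2), the median over all named genes of the mean level on the 4 arrays, and 4 lay below it. RNA from the whole ear of female mice aged 8 weeks was read on Affymetrix Mouse Gene 1.0 ST arrays, and every value is a log2 level after robust multi-array averaging (RMA). The groups were epithelial Traf6 knockout mice, called keratinocyte-specific in the series title (Traf6EKO, here EKO), given imiquimod (IMQ), EKO mice left untreated, mice with a floxed, intact Traf6 gene (Traf6f/f, here f/f) given IMQ, and f/f mice left untreated. IMQ, an agonist of Toll-like receptor 7 used to provoke psoriasis-like inflammation, was given to the ear for 2 days as 10 mg per day of a cream that contains it. Downstream of Toll-like, IL-1 and IL-17 receptors, TRAF6 builds ubiquitin chains that lead to activation of NF-kB. No source used here names the promoter that drove the deletion, and whole ear also holds dermis, fat, muscle, cartilage and leukocytes.

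Each group is 1 array, so no difference between 2 arrays has a replicate check or a p-value. The series text states n = 2 without saying whether an array pooled 2 mice. Array medians over 35556 probe sets ran from 6.52 to 6.57. Traf6 itself stood at 9.35 in EKO IMQ and 9.65 in EKO untreated skin, against 9.30 in f/f IMQ and 9.51 in f/f untreated skin. Its level was thus not lower on the arrays labelled EKO. No source used here places its probes inside or outside the deleted part, so this value does not check the labels. In whole tissue, fewer cells of a type and less RNA per cell cannot be told apart.

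The proteasome is the large protease that degrades ubiquitin-tagged proteins, among them the NF-kB inhibitor IkB. Its barrel-shaped 20S core is built from rings of alpha subunits, which gate the entrance, and beta subunits, some of which cut peptide bonds. The 19S cap recognises and unfolds tagged proteins, with a base that holds the unfolding ring of ATPases and some non-ATPase subunits, and a lid of non-ATPase subunits. Interferon-gamma and other inflammatory signals can replace the catalytic subunits Psmb6, Psmb7 and Psmb5 by the immunoproteasome subunits Psmb9, Psmb10 and Psmb8, which favours peptides suited to MHC class I. In mammalian cells the transcription factor NRF1, encoded by Nfe2l1, can raise the genes of the whole particle together through antioxidant response elements.

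Promoter sequences of 2 exchangeable catalytic pairs are shown because the subunits of each pair occupy the same place in the particle while their IMQ differences were unequal. The third pair, Psmb7 and Psmb10, is not shown because Psmb7 had no promoter window. Its IMQ differences were also unequal, though the closest to each other of the 3 pairs. The sequences are the 250 bases before the annotated start from RefSeq (GRCm38.p6), 5′ to 3′ on the strand of the gene. Capitals mark matches to motifs searched on both strands. The windows lie at chr14:54617996-54618245 (minus strand) for Psmb5, chr17:34197945-34198194 (plus strand) for Psmb8, chr11:70525107-70525356 (plus strand) for Psmb6 and chr17:34187331-34187580 (minus strand) for Psmb9.
Psmb5: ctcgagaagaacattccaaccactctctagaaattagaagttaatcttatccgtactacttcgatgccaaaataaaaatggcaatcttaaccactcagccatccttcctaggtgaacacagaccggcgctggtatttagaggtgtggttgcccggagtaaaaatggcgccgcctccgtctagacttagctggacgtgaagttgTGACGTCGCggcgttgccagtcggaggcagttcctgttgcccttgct
Psmb8: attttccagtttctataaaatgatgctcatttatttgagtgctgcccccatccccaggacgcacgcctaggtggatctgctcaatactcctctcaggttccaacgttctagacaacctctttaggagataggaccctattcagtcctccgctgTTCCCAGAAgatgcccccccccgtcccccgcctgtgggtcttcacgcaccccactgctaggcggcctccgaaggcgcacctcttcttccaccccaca
Psmb6: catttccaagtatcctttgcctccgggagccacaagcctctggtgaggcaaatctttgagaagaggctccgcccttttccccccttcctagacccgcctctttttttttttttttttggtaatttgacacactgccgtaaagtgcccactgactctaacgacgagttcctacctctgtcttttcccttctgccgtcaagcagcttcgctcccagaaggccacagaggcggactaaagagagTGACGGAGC
Psmb9: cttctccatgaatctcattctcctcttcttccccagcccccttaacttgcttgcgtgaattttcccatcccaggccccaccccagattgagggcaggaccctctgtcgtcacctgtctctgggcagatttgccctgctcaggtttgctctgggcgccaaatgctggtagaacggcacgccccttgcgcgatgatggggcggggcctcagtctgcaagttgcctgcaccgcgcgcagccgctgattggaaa
In Psmb5 the capitals are an antioxidant response element (TGACNNNGC) and in Psmb6 another, which ends at the base before the start. In Psmb8 they are a gamma-activated site (TTCNNNGAA), an element of interferon-gamma responses. Psmb9 held a match to none of the 3 motifs, the third being the interferon-stimulated response element (GAAA, any 2 bases, GAAA). Of the 50 genes, 42 had a promoter window, and 5 of these (11.9%) held the antioxidant element: Psmb5, Psmb6, Psmc6, Psmd12 and Psmd9. The share over all 27025 genes with a window was 11.5%. The interferon-stimulated element was found in 3 members, Psmb3, Psmd4 and Psmd9 (7.14%, against 3.46% of all genes), none of them an immunoproteasome gene. The gamma-activated site was found in 2, Psmb8 and Psmg1 (4.76%, against 8.13%). Members' windows had a median GC content of 57.6%, against 52.4% over all genes.

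With IMQ, proteasome genes were higher in both genotypes by modest amounts, and f/f skin showed the larger differences. In EKO skin the median difference over the 46 genes above the floor was 0.15 (log2, 1.11-fold), and 40 were above 0, against 47.1% of all 9969 genes above the floor. In f/f skin the median was 0.39 (1.31-fold), and 45 of 46 were above 0, against 50.5% of all genes. The median over all genes was -0.01 in EKO and 0.00 in f/f. At least 1.5-fold higher were 0 members in EKO (2.36% of all genes) and 8 in f/f (9.51% of all genes). None was at least 1.5-fold lower in either genotype, where 0.722% of all genes in EKO and 9.05% in f/f were, and none was 2-fold higher, where 0.592% of all genes in EKO and 3.19% in f/f were. The 8 genes were Psmd3, Psma7, Psmg1, Psmb5, Psma5, Psmd13, Psmd12 and Psmd14, all above 0 in EKO, with medians of 0.34 there and 0.70 in f/f. That count of 8 became 14 when arrays were centred on their medians, a scaling that moved the f/f median of all genes from 0.00 to 0.06. In both genotypes 40 of 46 were above 0, against 39.3% of all genes. The f/f IMQ array was the highest of the 4 for 41 of the 46 genes, against 36.1% of all genes. Levels of the groups of subunits on each array, plotted relative to each gene's own mean, show this order.

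**Figure D1:**
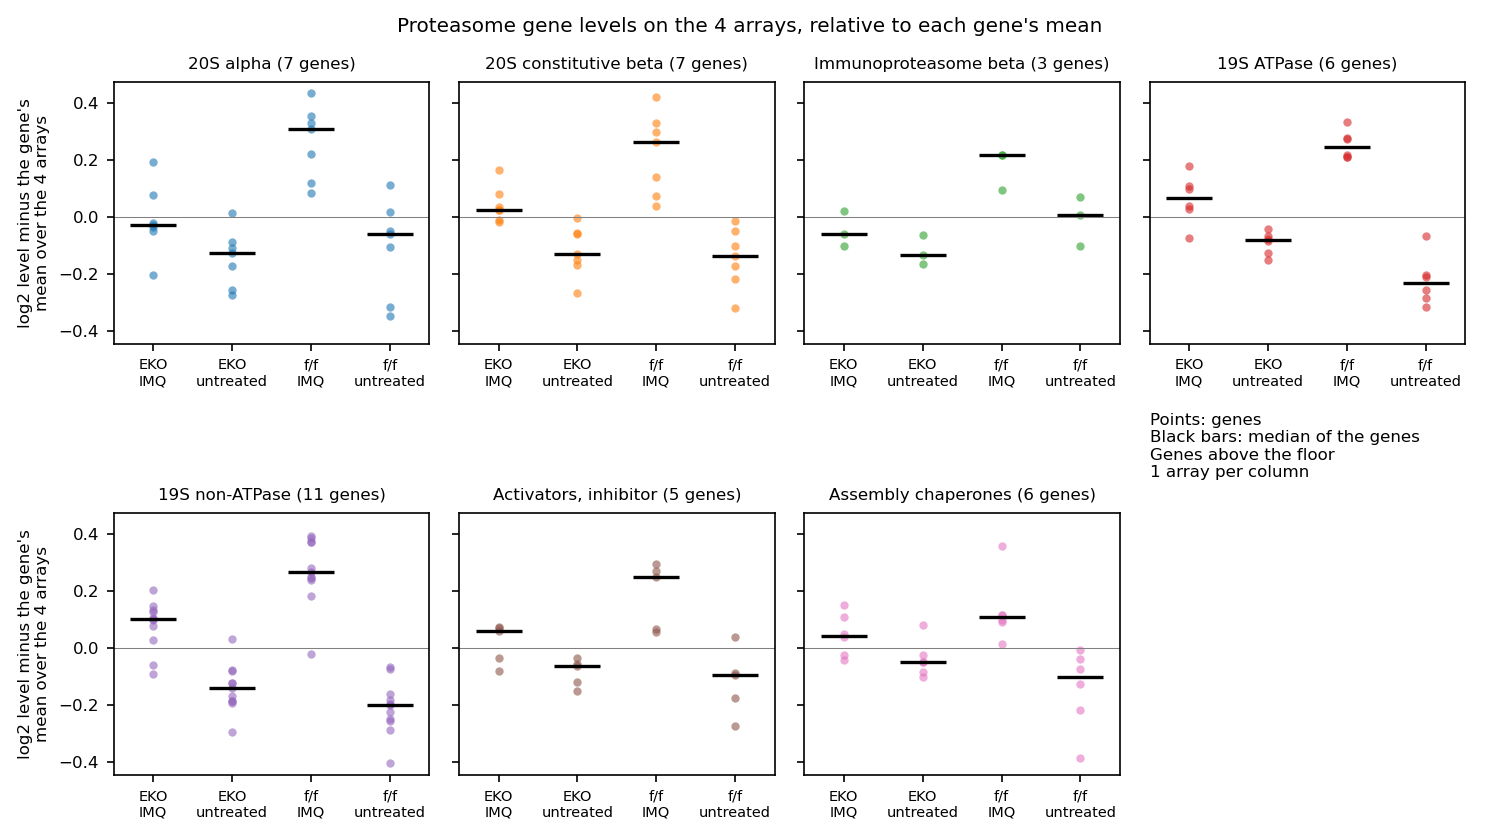
Log2 level of the subunit, activator and chaperone genes above the floor minus each gene's mean over the 4 arrays (vertical axis), for the EKO IMQ, EKO untreated, f/f IMQ and f/f untreated arrays, in 7 panels by role. Points are genes and black bars are medians over genes; the f/f IMQ column has the highest median in each panel, and single genes overlap between columns.

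The alpha ring genes differed widely among themselves. Psma7, the subunit with the largest difference of the ring, stood at 9.12 in EKO IMQ and 8.65 in EKO untreated skin, and at 9.36 in f/f IMQ and 8.58 in f/f untreated skin. It was therefore higher with IMQ by 0.47 in EKO (1.38-fold) and by 0.78 in f/f (1.72-fold), with both IMQ arrays above both untreated arrays. Psma5 stood at 8.30 in EKO IMQ and 8.11 in EKO untreated skin, and at 8.58 in f/f IMQ and 7.91 in f/f untreated skin, a difference of 0.19 in EKO and 0.67 in f/f. Its other probe set gave 0.26 and 0.38. Psma1 (0.15 in EKO, 0.41 in f/f), Psma3 (0.23 and 0.38) and Psma4 (0.09 and 0.28) lay in between, and Psma2 gave 0.04 and 0.10. At the other end was Psma6, at 9.79 in EKO IMQ and 10.01 in EKO untreated skin, and at 10.08 in f/f IMQ and 10.11 in f/f untreated skin. Its differences were -0.22 in EKO and -0.03 in f/f, the lowest of all 46 genes in both. The sign of its f/f value changed with scaling. Psma8, a testis-specific alpha subunit, was below the floor on every array, between 4.85 and 4.86.

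Among the constitutive beta genes, the catalytic Psmb5 had the largest IMQ difference. Psmb5 encodes the chymotrypsin-like active site, the one inhibited most strongly by bortezomib. It stood at 10.71 in EKO IMQ and 10.28 in EKO untreated skin, and at 10.96 in f/f IMQ and 10.23 in f/f untreated skin, that is 1.35-fold higher with IMQ in EKO and 1.67-fold in f/f. Psmb6, the caspase-like active site, stood at 9.74 in EKO IMQ and 9.59 in EKO untreated skin, and at 10.05 in f/f IMQ and 9.50 in f/f untreated skin, giving differences of 0.15 and 0.55. Psmb7, the trypsin-like active site, stood at 9.53 in EKO IMQ and 9.28 in EKO untreated skin, and at 9.72 in f/f IMQ and 9.28 in f/f untreated skin, giving 0.25 and 0.43. For all 3 catalytic genes, and also for Psmb1, Psmb2 and Psmb3, both IMQ arrays lay above both untreated arrays. The share of all genes in that order was not counted. The non-catalytic Psmb4 was nearly level, at 10.32 in EKO IMQ and 10.33 in EKO untreated skin, and at 10.37 in f/f IMQ and 10.32 in f/f untreated skin. Psmb1 (0.09 in EKO, 0.12 in f/f) and Psmb2 (0.08 and 0.24) were also low in the order, while Psmb3 gave 0.14 and 0.43. Psmb11, a thymus-specific catalytic subunit, stayed below the floor, between 6.04 and 6.20.

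The immunoproteasome genes showed smaller IMQ differences than the constitutive subunits whose places they take. Psmb8, the counterpart of Psmb5, stood at 7.45 in EKO IMQ and 7.34 in EKO untreated skin, and at 7.72 in f/f IMQ and 7.51 in f/f untreated skin, a difference of 0.11 in EKO and 0.21 in f/f. Psmb9, the counterpart of Psmb6, stood at 8.04 in EKO IMQ and 8.08 in EKO untreated skin, and at 8.24 in f/f IMQ and 8.21 in f/f untreated skin, a difference of -0.04 in EKO and 0.03 in f/f. Psmb10, the counterpart of Psmb7, stood at 8.21 in EKO IMQ and 8.06 in EKO untreated skin, and at 8.41 in f/f IMQ and 8.09 in f/f untreated skin, a difference of 0.15 and 0.32. In each of the 3 pairs, and in both genotypes, the constitutive gene had the larger difference, by between 0.09 (Psmb7 over Psmb10 in EKO) and 0.53 (Psmb5 over Psmb8 in f/f). For Psmb8 and Psmb9 the EKO IMQ array lay below the f/f untreated array. With 1 array per group the difference between the pairs was not tested.

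**Figure D2:**
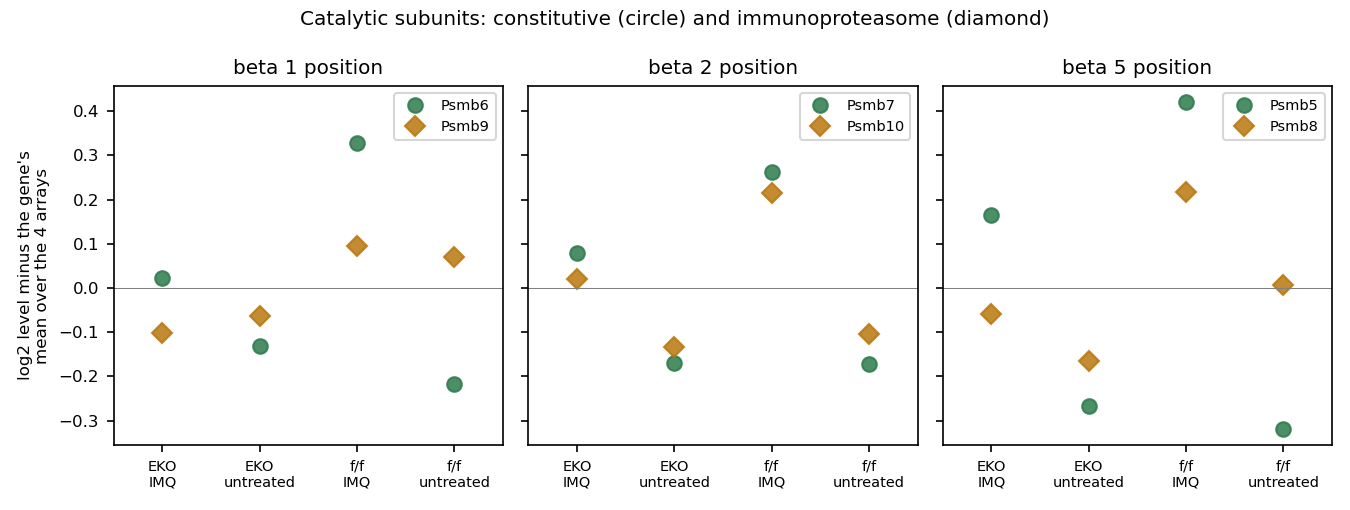
Log2 level minus the gene's own mean over the 4 arrays for the 3 exchangeable catalytic pairs, with constitutive genes as circles and immunoproteasome genes as diamonds, 1 array per column. Psmb5 and Psmb6 spread further between IMQ and untreated arrays than Psmb8 and Psmb9, whereas Psmb7 and Psmb10 lie close together.

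Genes of antigen processing and the interferon response, listed beside the immunoproteasome, were not higher with IMQ as a group. Of 15 measured above the floor, 5 were above 0 in EKO and 3 in f/f, with medians of -0.09 and -0.14. Over all genes 47.1% were above 0 in EKO and 50.5% in f/f. Tap1, the peptide transporter gene that adjoins Psmb9, stood at -0.04 in EKO and -0.07 in f/f, and the transcription factor Irf1 at 0.04 and -0.30. The MHC class II genes were lower with IMQ, H2-Aa having differences of -0.62 in EKO and -0.96 in f/f and H2-Ab1 of -0.72 and -0.93. The invariant chain Cd74 (-0.55 and -0.84) and H2-Eb1 (-0.60 and -0.82) followed. Ifng, the interferon-gamma gene, lay below the floor on every array. The chemokines Cxcl10 (1.70 in EKO and -0.11 in f/f) and Cxcl9 (0.59 and -0.10) were the 2 that reached 1.5-fold upward in EKO. Of all genes 2.36% did so. Cxcl10 stood at 8.36 in EKO IMQ and 6.66 in EKO untreated skin, and at 7.72 in f/f IMQ and 7.83 in f/f untreated skin. Cxcl9 stood at 7.79 in EKO IMQ and 7.21 in EKO untreated skin, and at 8.59 in f/f IMQ and 8.69 in f/f untreated skin. For both, the EKO untreated array was the lowest of the 4.

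All 6 genes of the 19S ATPase ring were higher with IMQ in f/f, within a narrow range of 0.28 to 0.56. Over all genes 50.5% were above 0 in f/f. In EKO 5 of 6 were above 0, with a median of 0.18 against 0.53 in f/f. Psmc2 stood at 8.51 in EKO IMQ and 8.33 in EKO untreated skin, and at 8.68 in f/f IMQ and 8.12 in f/f untreated skin, a difference of 0.18 in EKO and 0.56 in f/f. Psmc3 (0.54), Psmc4 (0.53) and Psmc5 (0.53) lay close to it in f/f, with EKO values of 0.18, 0.23 and 0.26. Psmc1 gave 0.08 in EKO and 0.41 in f/f. The lowest was Psmc6, at 8.83 in EKO IMQ and 8.83 in EKO untreated skin, and at 9.11 in f/f IMQ and 8.83 in f/f untreated skin. Its 3 levels other than f/f IMQ thus coincided. None of the 6 reached 1.5-fold, where 2.36% of all genes in EKO and 9.51% in f/f were at least that much higher.

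Of the 11 non-ATPase genes of the 19S cap, all were above 0 with IMQ in f/f (median 0.48), 4 of them at least 1.5-fold, and 10 were above 0 in EKO (median 0.22). Psmd3, a scaffold subunit of the lid, had the largest f/f difference of all 46 genes, while in EKO it came after Psma7, Psmb5 and Psmd14. It stood at 9.26 in EKO IMQ and 8.86 in EKO untreated skin, and at 9.44 in f/f IMQ and 8.65 in f/f untreated skin, 1.32-fold higher in EKO and 1.74-fold in f/f. Psmd14, the deubiquitinase that removes the ubiquitin chain at the lid, stood at 10.01 in EKO IMQ and 9.58 in EKO untreated skin, and at 10.26 in f/f IMQ and 9.65 in f/f untreated skin. The IMQ difference of Psmd14 in EKO, 0.43, was 1.35-fold, against 1.53-fold in f/f. Psmd13 stood at 9.50 in EKO IMQ and 9.22 in EKO untreated skin, and at 9.78 in f/f IMQ and 9.12 in f/f untreated skin (1.22-fold and 1.58-fold). Psmd12 stood at 8.97 in EKO IMQ and 8.80 in EKO untreated skin, and at 9.31 in f/f IMQ and 8.68 in f/f untreated skin (1.12-fold and 1.55-fold). The ubiquitin receptor Psmd4 gave 0.29 in EKO and 0.44 in f/f, the lid genes Psmd11 and Psmd7 gave 0.29 and 0.22 in EKO and 0.48 and 0.52 in f/f, and the base scaffolds Psmd2 and Psmd1 gave 0.16 and -0.01 in EKO and 0.37 and 0.32 in f/f. Psmd6 gave 0.06 and 0.32. The lid gene Psmd8 had the smallest f/f difference of the cap, 0.14, and 0.11 in EKO. It stood at 10.52 in EKO IMQ and 10.41 in EKO untreated skin, and at 10.35 in f/f IMQ and 10.21 in f/f untreated skin, so that both EKO arrays lay above both f/f arrays.

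**Figure D3:**
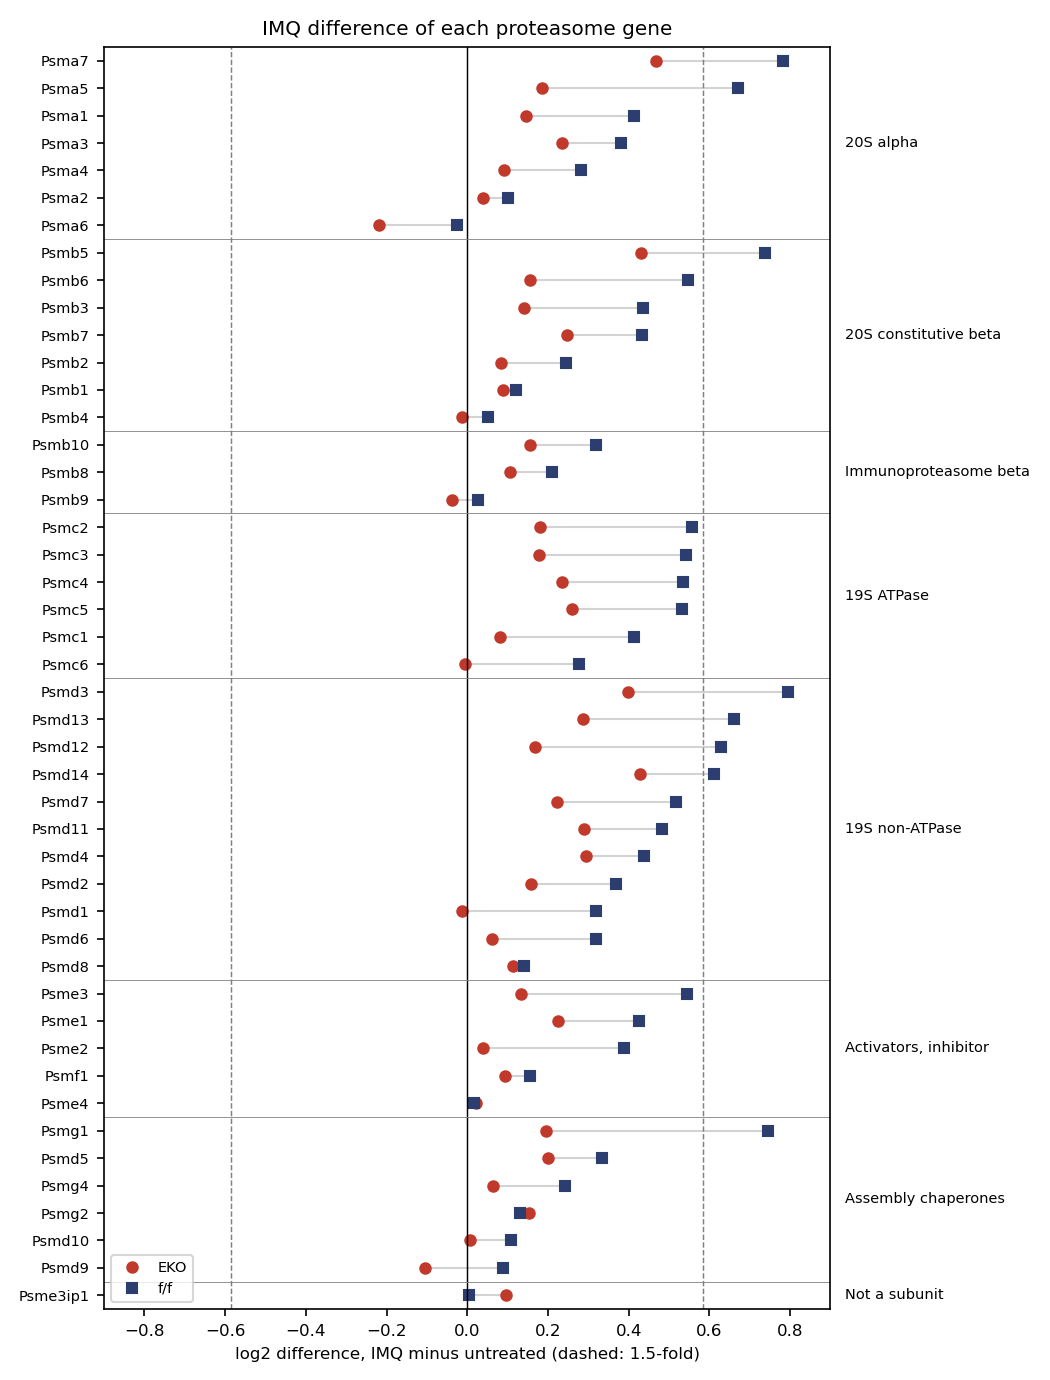
Log2 difference between IMQ and untreated skin for each of the 46 proteasome genes above the floor, with EKO as red circles and f/f as blue squares, grouped by role and ordered by the f/f value. Dashed lines mark 1.5-fold; 8 squares and 0 circles lie beyond the right line, and the circle lies left of the square for 43 genes.

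The PA28 activator genes were higher with IMQ in f/f. Psme1, the alpha chain of the PA28 cap that opens the core, stood at 9.93 in EKO IMQ and 9.70 in EKO untreated skin, and at 10.10 in f/f IMQ and 9.68 in f/f untreated skin (0.22 and 0.42). Its partner Psme2 stood at 10.35 in EKO IMQ and 10.31 in EKO untreated skin, and at 10.73 in f/f IMQ and 10.34 in f/f untreated skin (0.04 and 0.39), so that the f/f IMQ array alone was high. A further probe set that Psme2 shares with its copy Psme2b was left out. Psme3, the nuclear PA28 gamma, stood at 9.27 in EKO IMQ and 9.14 in EKO untreated skin, and at 9.47 in f/f IMQ and 8.93 in f/f untreated skin (0.13 and 0.54). Psme4, the PA200 activator, was nearly level, at 9.68 in EKO IMQ and 9.66 in EKO untreated skin, and at 9.77 in f/f IMQ and 9.75 in f/f untreated skin. Psmf1, the inhibitor PI31, gave 0.09 in EKO and 0.15 in f/f.

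Assembly chaperones, which build the particle and then leave it, had a median of 0.11 in EKO and 0.19 in f/f over the 6 above the floor. Psmg1, a chaperone of the alpha ring, was the exception. It stood at 8.04 in EKO IMQ and 7.85 in EKO untreated skin, and at 8.29 in f/f IMQ and 7.55 in f/f untreated skin, 1.14-fold and 1.68-fold higher with IMQ. Its dimer partner Psmg2 gave 0.15 in EKO and 0.13 in f/f. The base chaperones Psmd5 (0.20 and 0.33), Psmd10 (0.01 and 0.11) and the alpha ring factor Psmg4 (0.06 and 0.24) stayed under 1.5-fold, and Psmg3 lay below the floor, between 5.88 and 6.10. The base chaperone Psmd9 had the smallest f/f difference of the chaperones, at 7.22 in EKO IMQ and 7.33 in EKO untreated skin, and at 7.26 in f/f IMQ and 7.17 in f/f untreated skin. The symbol rule also found 2 genes that are not subunits. Psme3ip1, an interaction partner of PA28 gamma, stood at 8.58 in EKO IMQ and 8.49 in EKO untreated skin, and at 8.44 in both f/f arrays. Psmc3ip, a meiotic recombination factor, lay below the floor, between 6.04 and 6.38.

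Across the 46 genes, the IMQ differences in EKO and f/f, which share no array, ran in parallel (over genes, which are no replicates, Pearson r was 0.798 and Spearman rho 0.797). Over all 9969 genes the values were 0.809 and 0.798. With its sign kept, the EKO difference was the lower in 43 of 46 genes, against 53.4% of all genes. The exceptions were Psme3ip1, Psmg2 and Psme4. In size the EKO difference was nonetheless the larger for Psma6 (-0.22 against -0.03 in f/f), Psmb9 (-0.04 against 0.03) and Psmd9 (-0.10 against 0.09). The 53.4% covers genes on both sides of 0 in f/f, where 50.5% of all genes and 45 of 46 members were above 0. Among members above 0 in f/f, the median ratio of the EKO to the f/f difference was 0.43, against 0.351 over all genes above 0 in f/f. The difference of the IMQ differences (EKO minus f/f) had a median of -0.20, against -0.02 over all genes. Its lowest values were -0.55 for Psmg1 and -0.48 for Psma5, and none of the 46 lay 1.5-fold from 0, where 4.12% of all genes were lower and 3.41% higher by that much.

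Averaged over the genotypes, the IMQ effect was fitted with limma on 9969 genes, and 0 were called at an adjusted p under 0.05, so that 0% of all genes and 0 of 46 members passed. At an unadjusted p under 0.05, limma gave 15 members as higher and 0 as lower, against 12% of all genes higher and 14.3% lower. The members with the smallest p were Psma7 (averaged log2 difference 0.63, SE 0.13, limma adjusted p = 0.163), Psmd14 (0.52, SE 0.11) and Psmb5 (0.58, SE 0.12). That adjusted p was also the smallest of all genes. With 1 residual degree of freedom, the fit weighs the averaged effect against the difference of the IMQ differences between genotypes. The variance from that difference is moderated over all genes (eBayes), and it does not measure a spread between like arrays. The averaged genotype effect likewise called 0 of 46 members and 0% of all genes, with 0 members at an unadjusted p under 0.05 in limma, against 1.92% of all genes higher and 1.35% lower.

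Without IMQ the EKO minus f/f differences of proteasome genes lay on both sides of 0, and with IMQ nearly all were lower in EKO. In untreated skin the median of EKO minus f/f was 0.04 (0.02 over all genes), with 29 of 46 above 0, against 56.2% of all genes. The sign of 10 of the 46 untreated values changed with the scaling between arrays. With IMQ the median of EKO minus f/f was -0.18 (0.00 over all genes), and 43 of 46 were below 0, against 49.7% of all genes. EKO was at least 0.1 above f/f without IMQ and at least 0.1 below it with IMQ for 10 of 46 genes, against 10% of all genes. In both conditions 0 members differed by 1.5-fold in either direction, where 0.712% of all genes were higher and 0.893% lower without IMQ, and 1.96% higher and 2.12% lower with it. The lowest values with IMQ were those of Psme2 (-0.38), Psma3 (-0.35), Psmd12 (-0.34), Psmd1 (-0.34) and Psma1 (-0.34). Only Psmd8 (0.17), Psme3ip1 (0.14) and Psmd5 (0.03) were above 0.

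By role, untreated EKO skin had higher levels of the ATPase genes (6 of 6 above 0, median 0.15, with Psmc6 at 0.00 and its sign changing with scaling) and of 8 of 11 non-ATPase genes (median 0.10). Without IMQ the EKO array was also the higher for 19 of 19 cell cycle genes (median 0.44) and 12 of 12 keratinocyte markers (median 0.22). With IMQ the EKO array was the lower for 19 of 19 cell cycle genes (median -0.28) and for 4 of 12 keratinocyte markers (median 0.03). The part of these shifts in the proteasome values was not tested. The alpha genes had a median of -0.07, with 2 of 7 above 0. The 3 immunoproteasome genes were the one role group with all members lower in EKO in both conditions: without IMQ Psmb8 gave -0.17, Psmb9 -0.13 and Psmb10 -0.03, and with IMQ they gave -0.28, -0.20 and -0.19. The sign of Psmb10 without IMQ changed with scaling. In untreated skin 14 of the 15 antigen processing and interferon genes were below 0 as well (median -0.14), as were 9 of 9 macrophage markers (median -0.22). With IMQ the median of the antigen processing and interferon genes was 0.00, and 3 of 9 macrophage markers were below 0. The part of these shifts in the immunoproteasome values was not tested. The highest untreated value was that of Psmg1 (0.30) and the lowest that of Psma3 (-0.21), whose 3 probe sets ran from -0.21 to -0.17. These comparisons share arrays with the IMQ comparisons above, so their values are not independent of them.

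**Figure D4:**
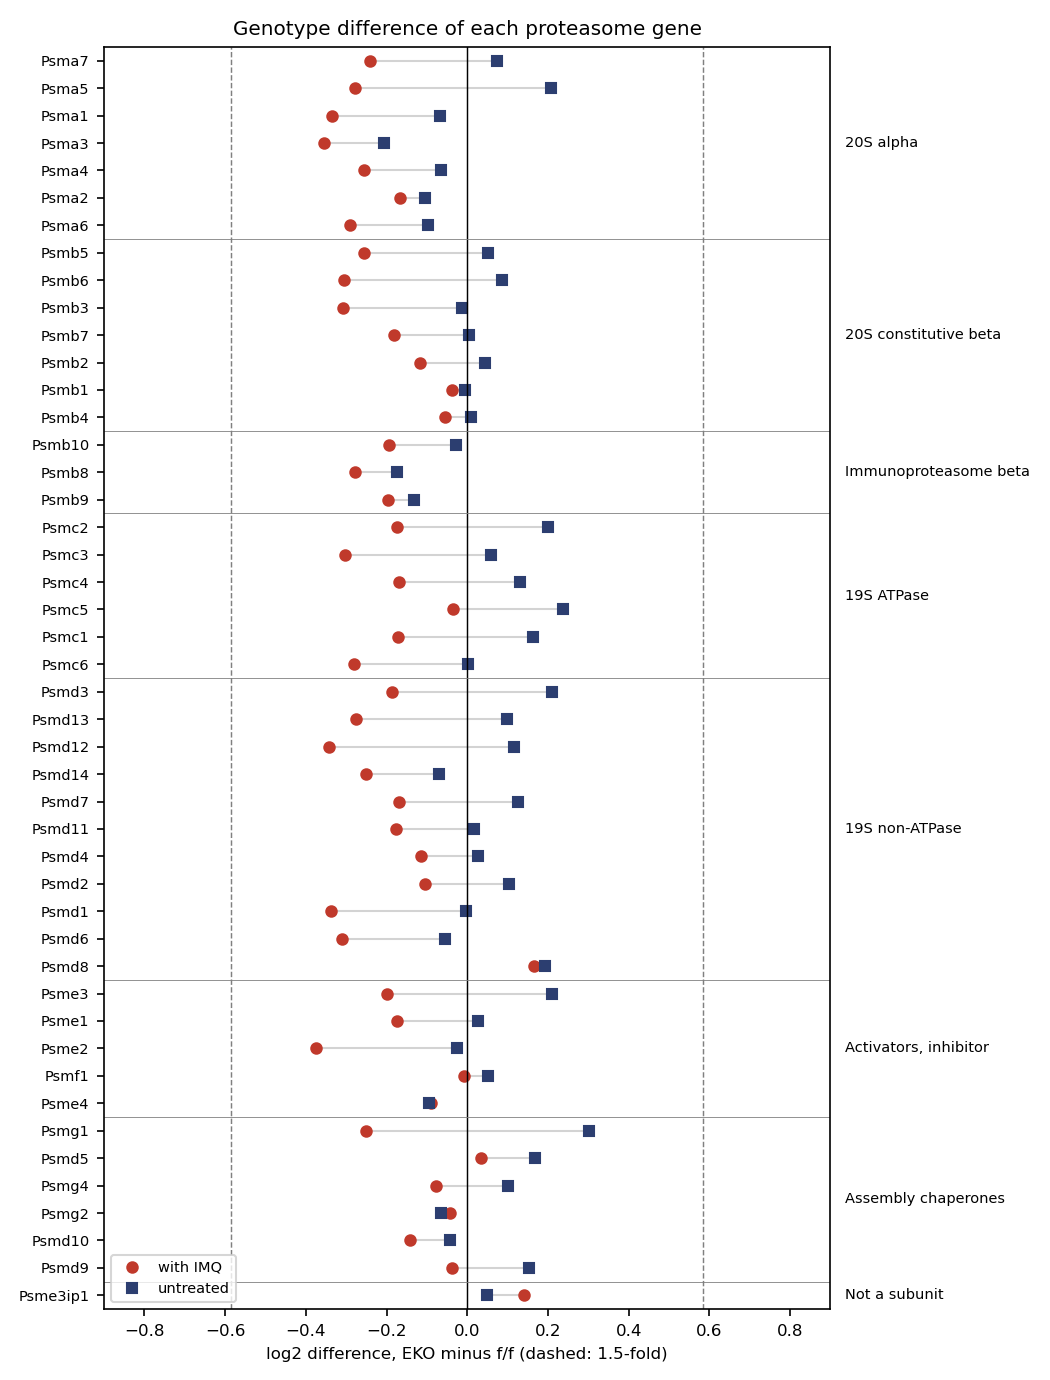
Log2 difference between EKO and f/f skin for each of the 46 proteasome genes above the floor, with IMQ (red circles) and untreated (blue squares), in the same order as the plot of IMQ differences. Dashed lines mark 1.5-fold, which no point reaches; 43 circles lie left of 0, and the squares lie on both sides of it.

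Partners of the proteasome that the symbol rule does not cover were set beside it. Of 23 measured above the floor, 16 were above 0 with IMQ in EKO (median 0.05) and 17 in f/f (median 0.28). Over all genes 47.1% were above 0 in EKO and 50.5% in f/f. The deubiquitinase Uchl5, which docks on the cap, had the largest f/f difference, 0.83, and was the only one past 1.5-fold in f/f, with 0.26 in EKO. The shuttle factor Rad23b followed with 0.27 and 0.58, the small cap subunit Sem1 with 0.27 and 0.43, and the shuttle factor Ubqln1 with 0.20 and 0.41. Pomp, the chaperone that completes the beta ring, gave 0.15 and 0.38. Nfe2l1, which encodes NRF1, gave -0.06 in EKO and -0.13 in f/f, and Nfe2l2, which encodes NRF2, gave 0.26 and 0.34. NRF1 is controlled largely by cleavage and degradation of its protein, which RNA levels do not show.

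The CCT chaperonin, another large cytosolic machine, was set beside the proteasome as well. In both genotypes 7 of its 8 genes were above 0, against 47.1% of all genes in EKO and 50.5% in f/f. Its medians were 0.25 in EKO and 0.57 in f/f. Its 8 genes were all lower in EKO than in f/f with IMQ (median -0.30). Values of this size were thus seen outside the proteasome too, and no test of a difference between the 2 sets was made.

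**Figure D5:**
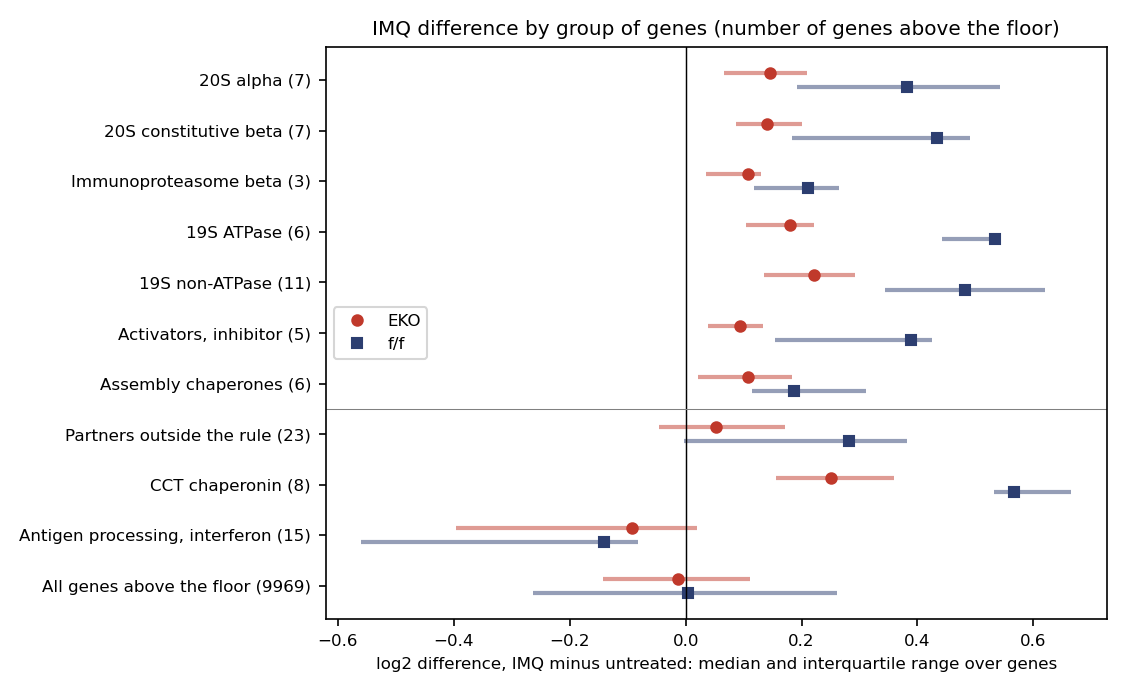
Median (symbol) and interquartile range over genes (bar) of the log2 difference between IMQ and untreated skin, with EKO in red and f/f in blue, for the 7 proteasome role groups above the line and 4 other sets below it. The ATPase and non-ATPase groups have the highest proteasome medians in f/f, 0.53 and 0.48, while antigen processing genes lie at -0.14.

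Marker genes of the cell types and cell states of the ear also differed between IMQ and untreated skin. All 19 measured of 20 cell cycle genes were higher with IMQ in both genotypes, their mean level being 8.54 in EKO IMQ, 7.82 in EKO untreated, 8.85 in f/f IMQ and 7.37 in f/f untreated skin. All 10 stress keratinocyte genes were higher too, with mean levels of 10.63, 8.75, 11.67 and 8.11 on the arrays in that order. Of 12 keratinocyte markers, 9 were above 0 in EKO and 10 in f/f, with mean levels of 11.88, 11.76, 11.96 and 11.49. Neutrophil markers were above 0 for 9 of 12 in EKO and 11 of 12 in f/f, with mean levels of 7.07, 6.47, 8.52 and 6.31, and 5 of them (Csf3r, Ly6g, Trem1, Clec4e and Clec4d) averaged below the floor. All 12 skeletal muscle markers were lower with IMQ in both genotypes, with mean levels of 10.43, 10.77, 9.91 and 10.97. All 9 measured adipocyte markers were lower in both as well, with mean levels of 9.12, 9.60, 8.65 and 10.10. Fibroblast markers were below 0 for 7 of 8 in each genotype, and endothelial markers for 7 of 8 in EKO and 8 of 8 in f/f. Of 10 measured T and NK cell markers 7 averaged below the floor. The 3 above it were lower with IMQ in both genotypes: Cd3g (-0.77 in EKO, -1.24 in f/f), Cd3e (-0.17 and -0.44) and Nkg7 (-0.43 and -0.29). Of 9 measured hair shaft markers, 9 were above 0 in EKO and 1 in f/f, with mean levels of 8.31, 7.68, 7.32 and 8.32. Of 9 measured macrophage markers, 4 were above 0 in EKO and 3 in f/f, with mean levels of 8.78, 8.73, 8.75 and 8.95. The part of these shifts in the IMQ differences was not tested.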

How the data were processed

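Gene expression was read on 4 Affymetrix Mouse Gene 1.0 ST arrays of whole ear skin, 1 array for each of 4 groups, which the sample titles name. The authors made the deposited log2 levels per probe set with RMA, per the submitters' processing notes, whose version was not given in the sources used here. A range of 2.58 to 13.8 bears out that scale. RMA equalises the arrays' distributions, which hides a shift shared by most genes and compresses low signals. The number of arrays limits the precision.

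Gene names came from the platform annotation: 21789 of 35556 probe sets had 1 symbol, 1621 had several and were left out (1 of them with a member symbol), and 12146 were not listed. All 56 probe sets of members were found in RefSeq by Entrez identifier with the same symbol. The probe set with the highest mean stood for each gene. Counts and medians cover genes whose mean over the 4 arrays reached the floor. A call is a 1.5-fold difference, with 2-fold as an alternative.

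Averaged effects were fitted with limma 3.58.1 in R 4.3.3 (lmFit, eBayes with trend, the other factor as covariate, Benjamini-Hochberg over 9969 genes). The step was also run on simulated data with IMQ changes but no genotype effect and no difference of IMQ effects between genotypes. That run therefore does not check the fit where such differences are present. Other steps used Python 3.11.15 with pandas 2.3.3 and scipy 1.17.1. Values on all arrays are given for the catalytic and PA28 genes, the extremes of each role group, members past 1.5-fold, and members a sentence needed. Outside the rule, up to 4 leading genes per list and a few regulators are named, and Cxcl9, Cxcl10 and Ifng were added after their values were seen. H2-K1 and H2-D1 had no probe set with 1 symbol. The members and lists were chosen with earlier results of these data known.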

Additional observations from a re-analysis of the deposited data

Results flagged for a closer look

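For 10 of 46 genes EKO minus f/f was above 0 without IMQ and below 0 with IMQ, each side by at least 0.1 (log2), against 10% of all genes. This was not tested, since each group is 1 array, and each value given is EKO minus f/f with IMQ minus the same without IMQ. Among 20S genes it was Psma5 alone, at -0.48. Its other probe set had EKO below f/f in both conditions (-0.24 with IMQ, -0.12 untreated), so the change of sign rests on 1 probe set. The other probe sets of Psmc1 (-0.06 with IMQ, 0.09 untreated) and Psmd2 (-0.09 and 0.07) had the same signs but did not reach 0.1 on both sides. Of the 19S ATPase genes, Psmc2 stood at -0.38, Psmc1 at -0.33 and Psmc4 at -0.30. The 19S non-ATPase genes were Psmd12 at -0.46, Psmd3 at -0.40, Psmd7 at -0.29 and Psmd2 at -0.21. The activator gene Psme3 stood at -0.41, and the assembly chaperone Psmg1 had the lowest value, -0.55.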

How the results depend on the processing

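All 5 medians over the members stayed on the same side of 0 under the 8 alternatives to each. For untreated EKO minus f/f the order against all genes did not hold. With cyclic loess scaling between arrays the members' median was 0.009, below the 0.012 of all genes. The ranges were 0.31 to 0.44 for IMQ in f/f, 0.12 to 0.16 for IMQ in EKO, 0.01 to 0.07 for untreated EKO minus f/f, -0.19 to -0.17 for EKO minus f/f with IMQ, and -0.24 to -0.18 for the difference of the IMQ differences. The count of members past 1.5-fold with IMQ in f/f moved from 8 to 14 with arrays centred on their medians and to 0 at 2-fold, and for the difference of the IMQ differences from 0 to 1 with centred arrays. In limma 0 members were called under all 7 alternatives to each averaged effect, with 14 to 20 members at an unadjusted p under 0.05 for IMQ and 0 or 1 for genotype. The lowest adjusted p of a member for IMQ ranged from 0.138 to 0.213. Signs of small values depended on scaling: 4 of 46 for IMQ in f/f, the largest of size 0.05, and 10 of 46 for untreated EKO minus f/f. No paired analysis was possible because each group holds 1 array, and for the same reason no replicate could be left out.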

Other observations

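Genes of the muscle ubiquitin ligases, which tag proteins for the proteasome in wasting muscle, had lower levels with IMQ, where most proteasome genes had higher ones. Fbxo32 stood at 8.58 in EKO IMQ and 9.15 in EKO untreated skin, and at 7.93 in f/f IMQ and 9.17 in f/f untreated skin, a difference of -0.57 in EKO and -1.24 in f/f. Trim63 stood at 7.20 in EKO IMQ and 7.61 in EKO untreated skin, and at 7.13 in f/f IMQ and 7.58 in f/f untreated skin, a difference of -0.41 and -0.45. All 12 skeletal muscle markers were lower on the same arrays, with medians of -0.31 in EKO and -0.97 in f/f. The part of these shifts in the values of Fbxo32 and Trim63 was not tested.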
